A study of Homo sapiens with 6 samples.

Results

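The genes described here encode proteins of the small subunit of the cytosolic ribosome. They were chosen by name: 28 protein-coding genes (RPSA, FAU and 26 genes of the RPS series) were looked up by their Ensembl identifiers among the 48162 genes of the count table, and all 28 were found. No measured value entered that choice. RNA was sequenced from SiHa cells, a human cervical squamous carcinoma line, after transfection with a small interfering RNA against CNN3 (si-CNN3) or a control siRNA (si-NC), with 3 samples in each group. CNN3 encodes calponin 3, an actin-binding protein, and the comparison asks which transcripts differ once it is depleted. For both groups the sample labels give a change of the transfection medium after 24 h, whereas the study's methods give an earlier time for siRNA. RNA was taken at 48 h, so all 6 samples share the cell line, the transfection procedure and the harvest time. The groups test 1 cell line and 1 siRNA sequence against CNN3.

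The small subunit holds the messenger RNA, carries the decoding centre and recruits the initiation factors, whereas the large subunit forms peptide bonds. Its proteins are needed in equal numbers, and their messenger RNAs typically begin with a cytosine followed by a run of pyrimidines, the terminal oligopyrimidine (TOP) motif, through which mTOR and LARP1 control their translation. Inherited loss of a copy of several of these genes, among them RPS19, RPS26, RPS28 and RPS29, causes Diamond-Blackfan anaemia. Ribosomal protein genes are among the most abundantly transcribed genes of proliferating cells, cervical carcinoma lines included.

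The starts of the called genes with the largest changes, up to 3 in each direction, and of RPS27 with its paralog RPS27L, are printed below because the first transcribed bases carry the TOP motif. Each stretch holds the 12 bases before and the 18 bases from the transcription start that RefSeq lists on GRCh38.p14, read along the gene's strand, and capitals mark the cytosine at the start with its run of pyrimidines where at least 4 pyrimidines follow it. RefSeq promoters were matched for 25 of the 28 genes, without RPS2, RPS15A and RPS20. RPS26, the seventh called gene, has a G at its listed start and no TOP motif there. The listed start is an annotation and was not measured in SiHa cells.
RPSA (chr3:39406708-39406737, plus strand): cctgccgcctgtCTTTTCCgtgctacctgc
RPS16 (chr19:39435932-39435961, minus strand): gcccctagctttCCTTTTCCggttgcggcg
RPS4X (chrX:72277231-72277260, minus strand): gtctccagccccaatttctacgcgcaccgg
RPS29 (chr14:49598693-49598722, minus strand): cgagcgcgcagctggcagcggtggttgttt
FAU (chr11:65122117-65122146, minus strand): cctcgcttcttcCTCTTTCTCgactccatc
RPS28 (chr19:8321484-8321513, plus strand): ccgaagcacgtgactcctctccgccagacc
RPS27 (chr1:153990750-153990779, plus strand): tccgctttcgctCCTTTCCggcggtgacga
RPS27L (chr15:63157460-63157489, minus strand): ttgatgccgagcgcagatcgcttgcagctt

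A cytosine at the listed start followed by at least 4 pyrimidines was present in 18 of the 25 matched small subunit genes (72%), against 4.71% of 14617 protein-coding promoters. A cytosine stood at the listed start of 20 of the 25 (80%), against 11.2% of those promoters. Moving the cytosine by up to 5 bases in either direction gave 20 genes (80%) and 22.2% of all promoters, and RPS28 then carried the motif as well. RPS27 carried it at the listed start and its paralog RPS27L did not. Over the 300 bases around the start, the TATA-box letters TATAAA on either strand were found in 2 of the 25 genes (8%) and in 9.3% of all promoters. The ETS-type letters CCGGAAG on either strand were found in 9 genes (36%), against 14.5% of all promoters.

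The sense strands of both siRNAs are given in the labels and are shown because a short match to a guide strand's seed is the usual route of siRNA effects on other transcripts. Capitals mark the bases that lie opposite bases 2 to 8 of the guide strand, so the same letters in a messenger RNA form a seed match.
si-CNN3#1: gcagaugggaaCCAACAAatt
si-NC: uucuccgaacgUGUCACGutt
Written as DNA, CCAACAA occurred in annotated protein-coding transcripts of 2 of the 28 small subunit genes, RPS19 and RPS20, and in 26.4% of 12697 tested genes. TGTCACG occurred in 0 of the 28 and in 8.04% of the tested genes. Whole transcripts were searched, and a longer transcript has more places for a match. The median length implied by FPKM was 804 bases for the 28 genes and 1476 for all tested genes, so these shares are not like for like. All 19 paired bases of the si-CNN3#1 sense strand were found in transcripts of CNN3 and of no other gene.

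The libraries held between 18147028 and 24976517 counts, and the si-CNN3 libraries were the 3 smallest. CNN3 had 490, 514 and 574 counts in si-CNN3 libraries and 1134, 1288 and 1234 with si-NC, a log2 fold change of -0.97 ± 0.055 (SE). Of 9 epithelial markers 8 were tested, and their listed genes summed to 1682 to 1758 counts normalized to library size (CPM) with si-CNN3 and 1728 to 1788 with si-NC. KRT7, KRT8, KRT17 and KRT18 were at over 100 CPM in both groups, KRT19 was at 4.88 against 5.04 CPM and EPCAM at 6.65 against 6.25 CPM, and KRT5 had 4 to 11 counts. KRT8 (log2 fold change -0.19) and KRT18 (-0.18) were lower and KRT17 (0.23) higher. Among markers of other cell types, CD14 was measured at 121 ± 3.91 against 149 ± 6.87 CPM (log2 fold change -0.30). The library of si-NC replicate 2 stood apart: it held 185 counts of the haemoglobin gene HBB where the other 5 held 0, and 102 of S100A8 where the others held 10 to 18. S100A8 was chosen after its values were seen. Where leaving out that library changed the call of a named gene, the value without it is given.

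The 28 genes spanned a wide range of level per length. Levels scaled for gene length and library size (FPKM), as deposited, ranged from 2.14 to 3017 in si-NC, with a median of 688, and 16 of the 28 lay within 2-fold of that median. RPS2, which lines the messenger RNA entry channel, was highest at 3017 ± 20.6 FPKM (SD, n = 3), followed by the zinc-finger protein gene RPS27 at 1992 ± 67.2 and RPS21 at 1509 ± 6.42. Of the 27 pairs of neighbours in this order, 7 overlapped in their si-NC samples: RPS15 with RPSA, RPSA with RPS19, RPS16 with RPS29, RPS29 with RPS6, RPS14 with RPS12, RPS13 with RPS20, and RPS20 with RPS25. The other neighbours were separated in every sample, which describes these 3 samples and is no test.

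Raw counts of the abundant genes were high in each library. RPS2 had 50094, 50469 and 49081 counts in si-CNN3 libraries and 54791, 67870 and 59522 with si-NC. RPS27 had 19344, 18403 and 17908 with si-CNN3 and 21094, 24974 and 21142 with si-NC. RPS21 had 15271, 14833 and 15018 with si-CNN3 and 15882, 19650 and 16960 with si-NC. The lower si-CNN3 counts of these genes went with the smaller si-CNN3 totals, and none of the 3 was past the threshold after scaling.

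RPS10, RPS15A and RPS23 were lowest. RPS10, a protein of the head of the subunit, had 38, 33 and 31 counts in si-CNN3 libraries and 38, 30 and 31 with si-NC. Of its annotated exonic bases, 39.4% are shared on the same strand with the readthrough gene RPS10-NUDT3, which was at 0 in all 6 samples. RPS15A had 688, 650 and 652 counts against 696, 808 and 716, and RPS23, which reaches into the decoding centre, had 1329, 1287 and 1265 against 1360, 1597 and 1481. How the counting treated reads that match several genes is not given in the sources used here, so these low values are uncertain as levels of genes with near-identical copies.

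**Figure D1:**
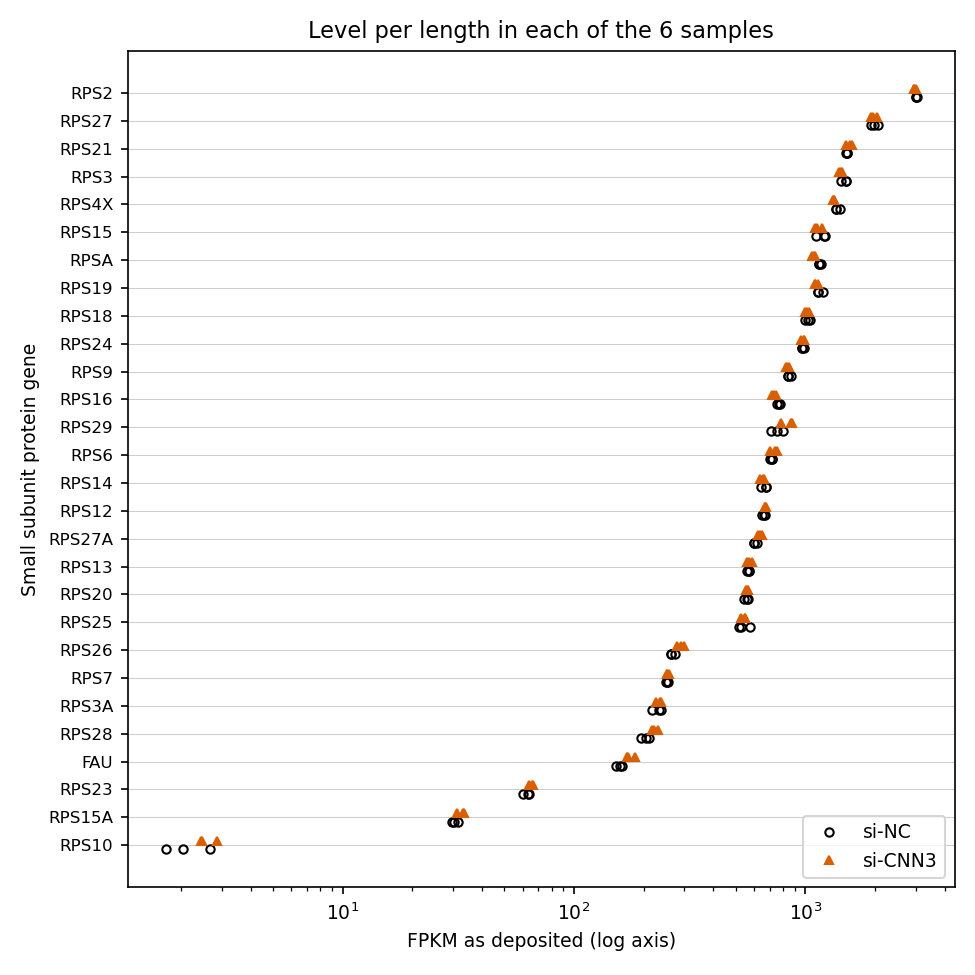
Deposited FPKM (horizontal log axis) of each of the 28 genes (vertical axis, ordered by the si-NC mean) in the 3 si-NC samples (open circles) and the 3 si-CNN3 samples (triangles). RPS2 stands at the top near 3017 FPKM and RPS10 at the bottom near 2.14, and the symbols of both groups lie close together for each gene.

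In sum over the 28 genes, the groups were close. The small subunit genes took 1.80%, 1.76% and 1.81% of all counts in si-CNN3 libraries and 1.83%, 1.80% and 1.79% with si-NC, that is 1.79% ± 0.0269 against 1.80% ± 0.0199 (SD, n = 3). The ranges overlapped. The 47 large subunit genes took 3.70% ± 0.0572 against 3.82% ± 0.0591. Their ranges did not overlap, with 3.64% to 3.76% in si-CNN3 libraries and 3.77% to 3.89% with si-NC. Each figure is a share of the library, so it says nothing of the amount of RNA per cell.

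After depletion of CNN3, 4 small subunit genes were higher (RPS29, FAU, RPS28 and RPS26), 3 were lower (RPSA, RPS16 and RPS4X), and 21 did not pass the test. All 28 passed the filter on low counts. Calls rest on the quasi-likelihood test of edgeR, adjusted after Benjamini and Hochberg over 15860 genes with a threshold of 0.05, by which 13.3% of all tested genes were called, 6.17% higher and 7.14% lower. The 7 called genes are 25% of the 28. These shares are not like for like, because smaller changes pass at high counts: the SE was 0.023 for RPS2 and 0.227 for RPS10. The median log2 fold change of the 28 was -0.0081, with 12 genes above 0 and 16 below, beside 0.0023 for all tested genes. Every called change was small, from -0.10 to 0.15 on the log2 scale. DESeq2, which called 8.41% of its genes, called 3 of the 28 higher and 4 lower. With scaling by total counts in place of the TMM factors, 4 genes were higher and 1 was lower. In bulk RNA, fewer cells of a type and less RNA per cell cannot be told apart.

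**Figure D2:**
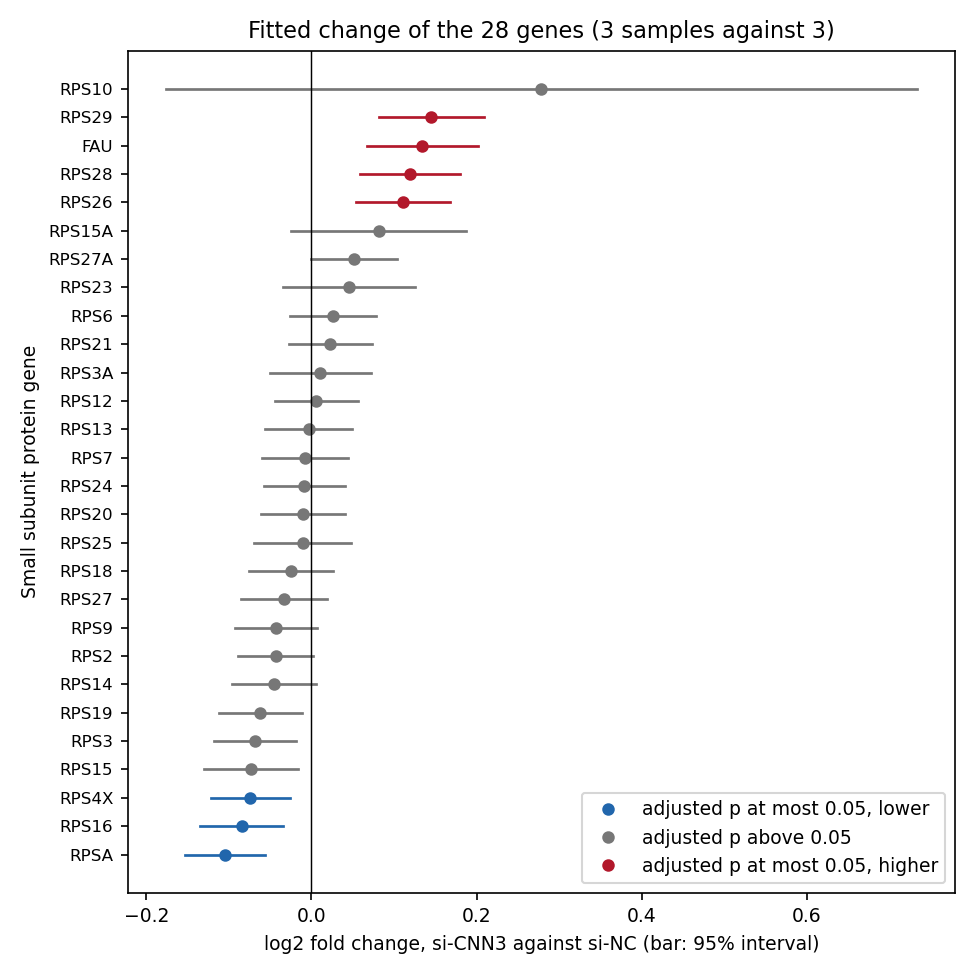
Fitted log2 fold change (horizontal axis, si-CNN3 against si-NC) of each of the 28 genes (vertical axis) with its 95% interval as a bar, coloured by call at an adjusted p of 0.05. The 4 genes called higher lie between 0.11 and 0.15, the 3 called lower between -0.10 and -0.07, and RPS10, with 30 to 38 counts per library, has the widest interval.

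The lower genes included both a body protein of the messenger RNA exit side and one that contacts the transfer RNA. RPSA (ENSG00000168028, chr3:39406689-39412542 in the GRCh38 annotation) encodes a protein near the exit of the messenger RNA channel that is also known as the laminin receptor precursor. It had 18958, 18668 and 18482 counts in si-CNN3 libraries and 21797, 26403 and 23024 with si-NC. Scaled for library size these were 1005, 972 and 1012 against 1086, 1061 and 1067 CPM, so every si-CNN3 sample lay below every si-NC sample. The log2 fold change was -0.10 ± 0.024 (SE; edgeR adjusted p = 0.00142), a fall of 7.0%. RPSA kept this call in 20 of 21 other ways of processing the data, and without si-NC replicate 2 it was -0.11 (edgeR adjusted p = 0.00234).

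RPS16 (ENSG00000105193, chr19:39433207-39435948) encodes a head protein whose tail reaches the transfer RNA in the P site. Its counts were 11237, 11137 and 11058 with si-CNN3 and 12748, 15823 and 13321 with si-NC. The normalized values of 596, 580 and 606 CPM did not overlap with the 635, 636 and 618 CPM of the control, and the log2 fold change was -0.08 ± 0.025 (SE; edgeR adjusted p = 0.0164). This call rested on single libraries: the edgeR adjusted p was 0.106 without si-CNN3 replicate 2, 0.0806 without si-NC replicate 1 and 0.0732 without si-NC replicate 2. Scaling by total counts gave -0.07 (edgeR adjusted p = 0.0523).

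RPS4X (ENSG00000198034, chrX:72255679-72277300) is the X-linked gene of a body protein that has close copies on the Y chromosome. It had 24247, 24741 and 23727 counts in si-CNN3 libraries and 27042, 34471 and 28999 with si-NC. In CPM it measured 1286, 1288 and 1300 against 1348, 1385 and 1344, again without overlap, with a log2 fold change of -0.07 ± 0.024 (SE; edgeR adjusted p = 0.0271). It was no longer called without si-CNN3 replicate 1 (edgeR adjusted p = 0.0674), without si-CNN3 replicate 2 (0.0578) or without si-NC replicate 2 (0.155). With total counts the value was -0.06 (edgeR adjusted p = 0.0838).

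The higher genes encode small proteins, 2 of the head and 2 of the body and platform. RPS29 (ENSG00000213741, chr14:49570984-49599164) encodes a zinc-binding head protein. It had 10363, 9478 and 10053 counts in si-CNN3 libraries and 10253, 11877 and 9777 with si-NC. The normalized values were 550, 494 and 551 CPM against 511, 477 and 453 CPM, so si-CNN3 replicate 2 lay below si-NC replicate 1 and the groups overlapped. The log2 fold change was 0.15 ± 0.032 (SE; edgeR adjusted p = 0.000633), a rise of 10.6%. DESeq2 gave 0.14 with an adjusted p of 0.248, and without si-NC replicate 3 edgeR gave 0.10 with an adjusted p of 0.0507.

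FAU (ENSG00000149806, chr11:65120628-65122473) encodes the ubiquitin-like protein FUBI fused to the ribosomal protein RPS30, which are separated after translation. Its counts were 2351, 2337 and 2414 with si-CNN3 and 2319, 2927 and 2404 with si-NC. All si-CNN3 values (125, 122 and 132 CPM) lay above all si-NC values (116, 118 and 111 CPM), and the log2 fold change was 0.13 ± 0.034 (SE; edgeR adjusted p = 0.00352). The call was lost without si-CNN3 replicate 3 (0.10, edgeR adjusted p = 0.0598) and without si-NC replicate 3 (0.11, edgeR adjusted p = 0.0534). Of the annotated exonic bases of FAU, 21.6% are shared with SYVN1 on the same strand and 15.3% with MRPL49 on the other, and whether strand was used in counting is not given in the sources used here.

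RPS28 (ENSG00000233927, chr19:8321158-8323340) encodes a head protein that faces the exit of the messenger RNA channel. It had 4279, 4251 and 4287 counts in si-CNN3 libraries and 4257, 4968 and 4695 with si-NC. These were 227, 221 and 235 CPM against 212, 200 and 218 CPM, without overlap, and the log2 fold change was 0.12 ± 0.030 (SE; edgeR adjusted p = 0.00378). A single processed pseudogene, RPS28P7, held 2437, 2329 and 2316 counts in si-CNN3 libraries and 2795, 2924 and 2514 with si-NC, and its own log2 fold change was 0.02 (edgeR adjusted p = 0.83). With the pseudogene's counts added to the gene, RPS28 was at 0.08 (edgeR adjusted p = 0.0508), and without si-NC replicate 2 it was at 0.08 (edgeR adjusted p = 0.101). Genes on the other strand, among them NDUFA7, share 21.4% of its annotated exonic bases.

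RPS26 (ENSG00000197728, chr12:56041351-56044697) encodes a platform protein that touches the messenger RNA upstream of the start codon. Its counts were 4873, 4726 and 4833 with si-CNN3 and 4714, 5804 and 5267 with si-NC. The normalized values of 258, 246 and 265 CPM lay above the 235, 233 and 244 CPM of the control in every sample, with a log2 fold change of 0.11 ± 0.029 (SE; edgeR adjusted p = 0.00474). RPS26 kept its call in 20 of 21 alternatives, with 0.10 (edgeR adjusted p = 0.0399) without si-NC replicate 2. No annotated gene shares its exonic bases, and its 30 pseudogenes together held 17 to 28 counts per library.

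**Figure D3:**
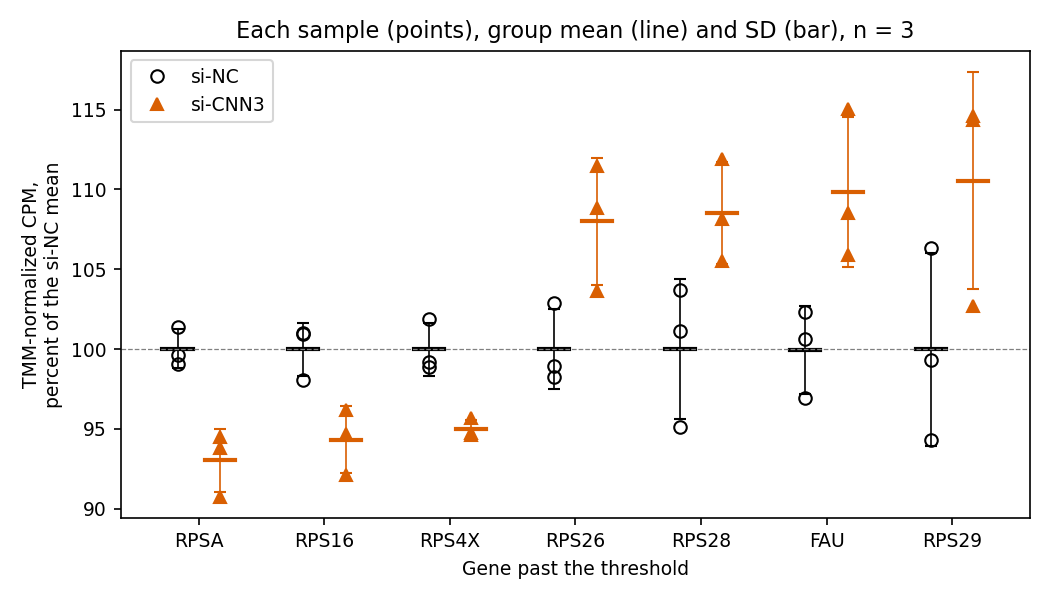
TMM-normalized CPM of each sample as a percentage of the gene's si-NC mean (vertical axis, which does not start at 0) for the 7 genes past the threshold (horizontal axis), with si-NC as open circles and si-CNN3 as triangles, the group mean as a line and the SD as a bar (n = 3). The groups are separated in 6 of the genes and overlap in RPS29.

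The groups did not overlap in 7 of the 28 genes (25%), 3 higher and 4 lower, where 28.2% of all tested genes had groups that did not overlap. These were the called genes other than RPS29, and RPS2, which measured 2658 ± 30.1 against 2739 ± 17.7 CPM (SD, n = 3) and was not called (log2 fold change -0.04, edgeR adjusted p = 0.231). An exact two-sided permutation test gave p = 0.1 for each of these 7, the smallest value that 3 samples against 3 can give.

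The 21 genes that did not pass include several of the best known proteins of the subunit. RPS3, at the entry of the messenger RNA channel, was at -0.07 (edgeR adjusted p = 0.0534), the head protein RPS15 at -0.07 (0.077) and RPS19, the gene most often mutated in Diamond-Blackfan anaemia, at -0.06 (0.0995). These are the nearest to the threshold, and their calls moved with the libraries: RPS3 was called without si-CNN3 replicate 1 (-0.08, edgeR adjusted p = 0.0375) and without si-NC replicate 3 (-0.09, 0.0235). RPS15 was called without si-CNN3 replicate 1 (-0.11, edgeR adjusted p = 0.0152) and without si-NC replicate 2 (-0.11, 0.00326), and RPS19 without si-CNN3 replicate 1 (-0.08, 0.0488). RPS6, the substrate of the S6 kinases, was at 0.03 (edgeR adjusted p = 0.599), and RPS27A, made as a fusion with ubiquitin, was at 0.05 (0.201).

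RPS14, a platform protein, was at -0.05, and RPS9, RPS18 and RPS27 were between -0.04 and -0.02. RPS3A, RPS7, RPS12, RPS13, RPS20, RPS24 and RPS25 were all within 0.011 of 0 on the log2 scale, and the sign of each changed with the scaling or with 1 library left out. RPS21 was at 0.02, RPS23 at 0.05 (0.01 without si-NC replicate 2) and RPS15A at 0.08. RPS10 was at 0.28 ± 0.227 (SE; edgeR adjusted p = 0.492), and at 0.13 without si-NC replicate 2. Leaving it aside, the 95% intervals of the other 20 lay between -0.13 (RPS15) and 0.19 (RPS15A), that is between 8.60% lower and 13.9% higher.

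By place in the subunit, a grouping chosen after the values were seen, the 12 head proteins had 2 genes higher (RPS28, RPS29), 1 lower (RPS16) and 9 not called, with a median log2 fold change of -0.0102. The 16 proteins of the body and platform had 2 higher (RPS26, FAU), 2 lower (RPSA, RPS4X) and 12 not called, with a median of -0.0054. Both regions thus held genes in either direction. Of the 4 higher genes 1 (FAU) carried the TOP motif at its listed start, as did 2 of the 3 lower genes (RPSA and RPS16) and 15 of the 18 genes not called that had a RefSeq promoter.

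The direction of the change went with the level of the gene. Spearman's rho between the log2 fold change and the mean si-NC FPKM was -0.70 over the 28 genes and -0.67 over 27 without RPS10. The genes share the same 6 libraries and the same scaling, so this describes the set and is not a test. Because the si-NC values enter both quantities, rho was also taken against the si-CNN3 mean (-0.66) and the mean of all 6 samples (-0.68). Among the 14 genes of highest FPKM, 11 were below 0, with 3 called lower and 1 (RPS29) called higher. Among the other 14, 9 were above 0, with 3 called higher and 0 called lower. The same rho, against the mean of 6 samples, was -0.38 over the 47 large subunit genes and -0.07 over all 15860 tested genes. With the genes' length, rho was -0.14, and with GC content -0.20. The lowest levels, those of RPS10, RPS15A and RPS23, are uncertain, and of these only RPS10 was left out. RPS28, also among the lower levels, went from 0.12 to 0.08 when pseudogene counts were added.

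**Figure D4:**
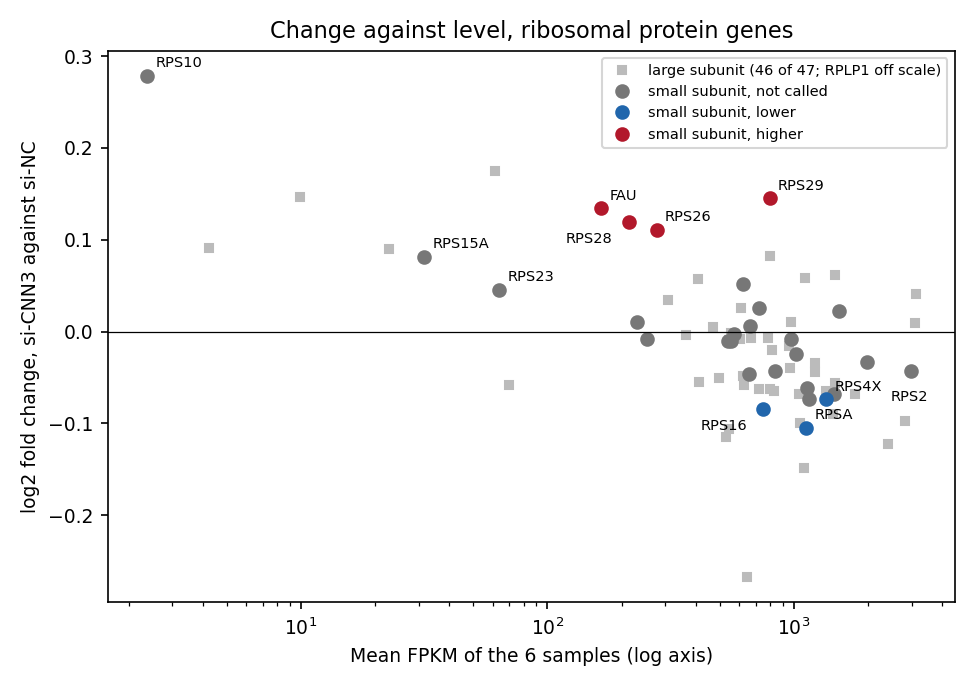
Log2 fold change (vertical axis, si-CNN3 against si-NC) against the mean FPKM of the 6 samples (horizontal log axis) for the 28 small subunit genes (circles, coloured by call) and 46 of the 47 large subunit genes (squares; RPLP1, at -0.67, is off the scale). The called higher genes lie mostly at lower FPKM than the called lower genes, with RPS29 as the exception.

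RACK1, a scaffold protein on the head of the small subunit and outside the chosen 28, had 14686, 14573 and 14068 counts in si-CNN3 libraries and 16296, 19695 and 17159 with si-NC. Its log2 fold change of -0.06 did not pass (edgeR adjusted p = 0.131). RPS27L, the paralog of RPS27, had 2091, 1990 and 2032 counts in si-CNN3 libraries and 2176, 2596 and 2338 with si-NC, a log2 fold change of 0.02 (edgeR adjusted p = 0.767). RPS27 itself was at -0.03 (0.47). The ubiquitin gene UBB was higher (0.22, edgeR adjusted p = 0.0124), but this rested on 1 library: it had 4754 counts in si-CNN3 replicate 3 and 3190 and 3300 in the other si-CNN3 libraries, and without si-CNN3 replicate 3 it was at -0.0085 (edgeR adjusted p = 0.92).

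The large subunit genes gave the closest comparison. Of 47, 2 were higher and 9 lower, with a median log2 fold change of -0.0336. The stalk proteins RPLP1 (-0.67), RPLP2 (-0.15) and RPLP0 (-0.12), which recruit elongation factors, and RPL31 (-0.27) were lower, and RPL30 (0.17) and RPL36 (0.08) were higher. Neither of the higher calls held without si-CNN3 replicate 3 (edgeR adjusted p = 0.0612 for RPL30 and 0.178 for RPL36) or without si-NC replicate 2 (0.0812 and 0.073), and RPL36 was also lost without si-NC replicate 1 (0.0816) and without si-NC replicate 3 (0.0616). The number called lower was 15 without si-CNN3 replicate 1. None of the 28 small subunit genes had a log2 fold change as large as that of RPL31 except RPS10, whose interval runs from -0.18 to 0.73. Whether the small and large subunit genes differ was not tested.

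Genes that make, modify or use the small subunit were read against the 13.3% of all tested genes that were called. That share covers genes of all count levels and was not matched to the counts of each list. Of 41 assembly factors tested, 0 were higher and 2 lower (4.88% called): nucleolin, NCL (-0.32 ± 0.024 SE), and TSR2 (-0.12 ± 0.036 SE), the chaperone that delivers RPS26. TSR2 had 1721, 1615 and 1687 counts in si-CNN3 libraries and 1931, 2428 and 2105 with si-NC, and its edgeR adjusted p was 0.0157. That call was lost without si-CNN3 replicate 2 (-0.08, edgeR adjusted p = 0.193), without si-NC replicate 2 (-0.12, 0.0526) and without si-NC replicate 3 (-0.12, 0.0571), and DESeq2 gave an adjusted p of 0.0931. Of 14 dedicated chaperones and modifiers, the list that also holds TSR2, 2 were higher and 2 lower (28.6% called). ZNF598 (0.17), which ubiquitinates small subunit proteins on stalled ribosomes, and the ubiquitin ligase RNF10 (0.09), which targets RPS2 and RPS3, were higher, and the histone chaperone NAP1L1 (-0.24) was lower. The call of RNF10 was lost without si-CNN3 replicate 1 (edgeR adjusted p = 0.0753), without si-NC replicate 1 (0.0734) and without si-NC replicate 3 (0.0544).

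Of 11 RPS6 kinases and phosphatase genes, edgeR's quasi-likelihood test called 0, with 1 at an unadjusted p under 0.05. Of 24 initiation partners of the small subunit, 4 were higher, EIF1 (0.17), EIF2S1 (0.13), EIF3M (0.11) and EIF2S2 (0.09), and 1 was lower, EIF3A (-0.21), which together are 20.8% of the list. EIF3M was not called without si-CNN3 replicate 3 (0.09, edgeR adjusted p = 0.173), si-NC replicate 1 (0.11, 0.0832) or si-NC replicate 2 (0.07, 0.283), nor EIF2S2 without si-CNN3 replicate 1 (0.07, edgeR adjusted p = 0.1) or si-NC replicate 1 (0.08, 0.0624). EIF1 guards the choice of start codon, EIF2S1 and EIF2S2 are subunits of the factor that brings the initiator transfer RNA, and EIF3A and EIF3M belong to the scaffold eIF3. Of 19 other genes listed as having TOP messenger RNAs, 3 were higher and 5 lower (42.1% called), with a median of -0.0052. The motif was not checked at the starts of these genes. Of 18 regulators of TOP messenger RNAs, 1 was higher (LARP4, 0.22) and 1 lower (EIF4EBP2, -0.28). LARP1 and LARP4 are on both lists, and NAP1L1 is on the first and among the chaperones and modifiers. LARP1, which binds the TOP motif, was at 0.00 (edgeR adjusted p = 0.953).

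Across 21 other ways of processing the same files, each of the 7 called genes kept its direction in all 21. RPSA and RPS26 kept their call in 20, RPS28, RPS29 and FAU in 18, and RPS16 and RPS4X in 14.

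**Figure D5:**
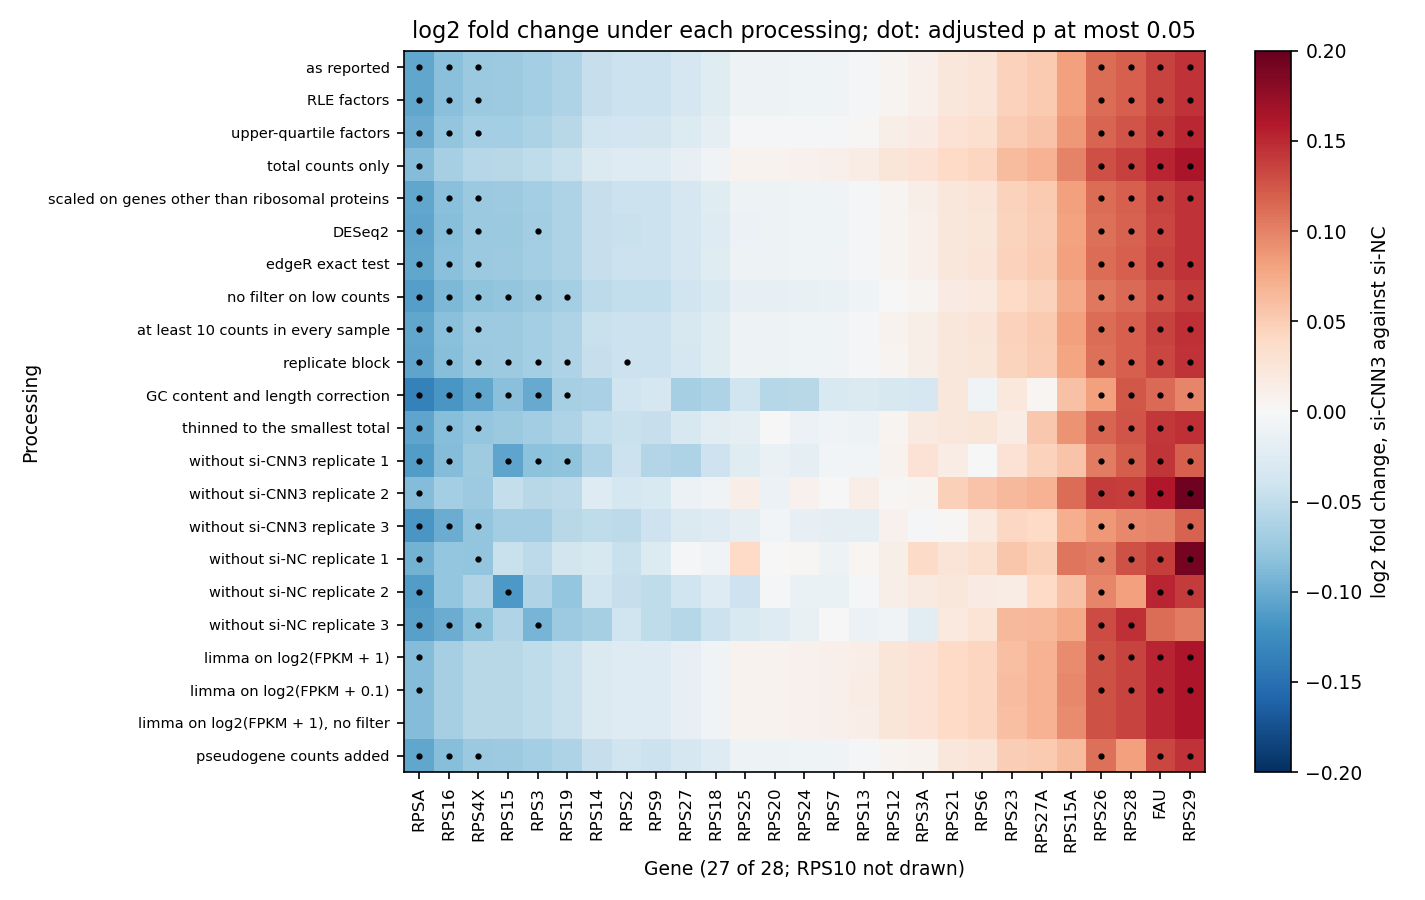
Log2 fold change (colour scale) of 27 of the 28 genes (horizontal axis, ordered by the reported value, without RPS10) under each way of processing (vertical axis), with a dot where the adjusted p was at most 0.05. The outer columns, from RPSA on the left to RPS29 on the right, keep their colour in every line, and the dots of RPS16 and RPS4X are missing in 7 of the 21 alternatives.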

How the data were processed

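RNA-seq libraries of 6 SiHa samples, described in the study's methods as independent assays (3 per group), were aligned and counted by the authors. The submitters' processing notes name TopHat2 2.0.9, Bowtie2 2.0.6, HTSeq and DESeq 1.10.1. The genome build, annotation, strand setting and handling of reads that match several genes are not given in the sources used here. The deposited tables hold raw read counts per Ensembl gene and FPKM, which the authors computed per sample. Gene names and coordinates came from GENCODE 29 (GRCh38), which named 45342 of 48162 genes.

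The counts of all genes were fitted in edgeR 4.0.16 (R 4.3.3; filterByExpr, TMM, quasi-likelihood test, Benjamini-Hochberg over 15860 genes, threshold 0.05) with the condition as the sole term. CPM are TMM-normalized, and the standard error is the absolute log2 fold change over the square root of F. Levels between genes were compared as FPKM only. Alternatives were DESeq2 1.42.0, limma 3.58.1 on log2(FPKM + 1), log2(FPKM + 0.1) and without a mean FPKM minimum of 1, other scalings and filters, a GC content and length correction, thinning, a replicate block, pseudogene counts added, and each library left out. Same-group libraries differed beyond sampling noise (chi-square per degree of freedom 1.56 to 1.97). Whether any was the same library sequenced again, or whether they came from separate transfections, cannot be told from these values.

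On simulated counts for 15857 genes, the edgeR test recovered 10% of genes changed by 0.1, 54% by 0.2, and 100% by 0.5 on the log2 scale (50 each), with 11 false calls. The changed genes were drawn at random from those with a minimum mean count. The simulated spread between samples was fixed above the common spread fitted to the data, and fewer genes were changed than the data called. These shares therefore do not give the recovery for the small subunit genes, most of which had high counts. The genes and lists were chosen with earlier results of these data known. Counts per sample are given for called members and for the 3 highest and 3 lowest by FPKM, and from other lists CNN3, RACK1, RPS27L and up to 4 called genes per direction are named. Other names (S100A8, LARP1 and the pseudogene) were chosen after their values were seen. Some genes of the lists are not reported here.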

Additional observations from a re-analysis of the deposited data

How the results depend on the processing

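Of the small subunit genes, 4 were called higher and 3 lower; leaving out each library in turn gave 2 to 4 higher and 1 to 5 lower. The number called lower was 1 with total counts, 6 without a filter on low counts, 6 with the GC content and length correction, and 1 with limma on log2(FPKM + 1) or log2(FPKM + 0.1). Limma without the filter called 0 higher and 0 lower; its pool was 30502 genes, and the cause was not tested. Sign changes touched genes that were not called. With the GC content and length correction, RPS3A was at -0.0337, RPS6 at -0.0074 and RPS12 at -0.0316. With total counts, RPS7 was at 0.0098, RPS13 at 0.0142, RPS20 at 0.0072, RPS24 at 0.0088 and RPS25 at 0.0072. Limma gave 0.0097 (0.0098 with the smaller pseudocount) for RPS7, 0.0140 (0.0141) for RPS13, 0.0073 (0.0074) for RPS20, 0.0086 for RPS24 and 0.0075 (0.0076) for RPS25. RPS13 was at 0.0026 with upper-quartile factors and RPS20 at 0.0005 after thinning. With 1 library left out, RPS3A ranged from -0.0234 to 0.0383, RPS6 from -0.0014 to 0.0565, RPS12 from -0.0063 to 0.0122, RPS13 from -0.0196 to 0.0138, RPS24 from -0.0201 to 0.0091 and RPS25 from -0.0412 to 0.0404. With pseudogene counts added the share of counts was 1.83% with si-CNN3 and 1.84% with si-NC. Same-numbered samples had correlations of 0.0105, 0.0329 and 0.0275, each the highest for its number. These are weak, and whether the replicate numbers pair the samples cannot be told from them. A replicate block raised the calls from 2111 to 2727 over all genes and from 3 to 7 for the small subunit genes called lower. DESeq2 called 1073 of 12761 genes with an adjusted p, and limma 1363, 1353 and 585. Depth limits RPS10 most, and 3 samples per group limit the changes near 0.1 on the log2 scale.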

Other observations

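Of the other genes listed as having TOP messenger RNAs, the elongation factor gene EEF1A1 had 136801, 138579 and 128571 counts in si-CNN3 libraries and 164032, 193554 and 166406 with si-NC. Its log2 fold change was -0.14 (edgeR adjusted p = 1.37e-05). EEF2 (-0.07), PABPC1 (-0.11), EIF4B (-0.18) and NAP1L1 (-0.24) were lower as well, and LARP4 (0.22) and the small nucleolar RNA host genes SNHG1 (0.18) and SNHG8 (0.19) were higher. Of the 19 genes of this list 8 (42.1%) were called, against 13.3% of all tested genes, a share not matched for counts. The call of EEF2 was lost when any single library other than si-CNN3 replicate 1 was left out. Its edgeR adjusted p then ran from 0.0509 (without si-NC replicate 3) to 0.138 (without si-CNN3 replicate 3). Without si-NC replicate 2, EEF2 was at -0.06 (edgeR adjusted p = 0.116). SNHG8 was not called without si-CNN3 replicate 2 (0.20, edgeR adjusted p = 0.0693), si-CNN3 replicate 3 (0.15, 0.213), si-NC replicate 2 (0.20, 0.068) or si-NC replicate 3 (0.16, 0.167).

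In the library of si-NC replicate 2, further genes of blood cells stood above the other 5 libraries: S100A9 had 165 counts against 49 to 72, CSF3R 53 against 0 to 1, LYZ 26 against 1 to 3 and HBA2 35 against 1 to 6. These 4 genes were chosen after their values were seen.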
